A study of Mus musculus with 24 samples.

Results

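Mouse embryonic stem cells set, copy and remove DNA methylation with a small group of enzymes, and 10 of their genes are described here: Dnmt1, Uhrf1, Uhrf2, Dnmt3a, Dnmt3b, Dnmt3l, Tet1, Tet2, Tet3 and Tdg. The rows were found by gene name. Each matched 1 row of both deposited count tables, which made 10 of 35022 genes in the experiment in which PD03 was removed and 10 of 48709 in the experiment in which CHIRON was removed. All 10 were also among the 13422 and 14615 protein-coding genes that passed the filter on low counts.

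Methylation of cytosine in CpG dinucleotides is copied onto new DNA by Dnmt1, which Uhrf1 brings to half-methylated sites behind the replication fork, while Dnmt3a and Dnmt3b add methyl groups to unmethylated sites with the help of the inactive cofactor Dnmt3l. The Tet enzymes oxidise 5-methylcytosine, and the glycosylase Tdg cuts out the more oxidised forms so that base excision repair can restore cytosine. Naive mESCs kept with inhibitors of MEK and GSK3 are known for low genome-wide methylation, which rises again as cells leave that state.

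E14 mESCs (129m, wild type) were plated on fibronectin-coated StemBond hydrogels, soft or stiff, and spent 12 h in 2i + LIF, with PD03, an inhibitor of MEK, at 1 µM and CHIRON, an inhibitor of GSK3, at 3 µM. PD03 was then withdrawn, which left CHIRON + LIF, or CHIRON was withdrawn, which left PD03 + LIF, so that LIF and 1 of the inhibitors were present in every later group. RNA was taken in 2i + LIF (0 h) and after 2 h and 12 h on each substrate, with 2 replicate libraries in each of 12 groups, 24 in all. Nothing in the labels says that replicates came from separate cultures, so p-values measure the spread between these libraries, which may be technical, and E14 is a single cell line. The study discarded 1 library of stiff substrates at 2 h after CHIRON removal, which held 171333 counts. It was left out here too, so that group rests on 1 library, which the fit assumes to vary like the other groups.

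The 12 libraries of PD03 removal held between 16222196 and 26442153 counts and the 11 libraries of CHIRON removal between 19393787 and 31111260. The biological coefficient of variation was 0.0386 in PD03 removal and 0.0797 in CHIRON removal, so the same fold change was harder to call in the latter. The summed level of 5 embryonic stem cell markers (Pou5f1, Sox2, Nanog, Esrrb and Zfp42) was between 3737 and 4491 CPM (counts scaled to a common library total) in PD03 removal and between 3301 and 4132 CPM in CHIRON removal. At 12 h 3 of these 5 were lower on both substrates after PD03 removal (Nanog, Sox2 and Zfp42), and after CHIRON removal 2 were higher and 1 lower on soft and 4 higher and 1 lower on stiff substrates. In the difference between experiments 1 was higher and 4 were lower. Of all tested genes, 29.4% were called on soft and 38.4% on stiff substrates at 12 h of PD03 removal. The shares were 17.8% and 16.8% at 12 h of CHIRON removal and 36.1% in the difference. The part of these markers in the results was not tested. Primitive endoderm markers (Gata4, Gata6, Sox17, Sox7 and Pdgfra) summed to between 2.28 and 4.97 CPM and between 4.75 and 8.09 CPM, and fibroblast markers (Col1a1, Col1a2, Thy1, Acta2 and Postn) to between 5.08 and 8.13 CPM and between 4.03 and 7.16 CPM. Of these 10 genes of other cell types, 0 were without counts in all libraries of a table. At 12 h of PD03 removal 1 of 2 tested primitive endoderm markers was higher on soft and 0 on stiff substrates. Of 3 tested fibroblast markers 0 were called on soft and 1 was higher on stiff substrates.

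DNA before 1 annotated transcription start each is shown for the maintenance pair and for Dnmt3b. The results turn on the unlike responses of these genes to PD03 removal. RefSeq (GRCm38.p6) gave 17 starts for the 10 genes, and the 250 bases before each were searched on both strands for CCGGAA (the core bound by ETS factors), CTTTGA (the core bound by TCF/LEF factors) and TTTNGCGC (a core bound by E2F factors). The E2F core lay in 2 of the 17 windows, 1 of Dnmt1 and 1 of Uhrf1, against 1.13% of the 32851 windows of all genes. The TCF/LEF core lay in 1 of the 17, at another start of Dnmt1, against 13.8% of all windows, and the ETS core in 0 of the 17, against 12.0%. No window of the 10 genes held more than 1 match, so no matches overlapped within a window. A match is a description of these letters, not a binding site. The windows of all genes were not matched to the 17 by CpG content. Some of the 17 belong to the same gene, and 2 of Dnmt3a share bases. The shares are therefore not read as an enrichment. In the Dnmt1 and Uhrf1 windows the capitals mark the E2F core, and in the Dnmt3b window, which held none of the 3 motifs, they mark CpG.
Dnmt1, chr9:20952624-20952873, - strand: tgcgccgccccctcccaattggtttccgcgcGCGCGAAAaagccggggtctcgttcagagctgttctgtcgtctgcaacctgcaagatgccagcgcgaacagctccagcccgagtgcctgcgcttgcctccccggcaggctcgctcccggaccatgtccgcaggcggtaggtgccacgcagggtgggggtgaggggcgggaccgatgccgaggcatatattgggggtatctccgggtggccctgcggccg
Uhrf1, chr17:56304063-56304312, + strand: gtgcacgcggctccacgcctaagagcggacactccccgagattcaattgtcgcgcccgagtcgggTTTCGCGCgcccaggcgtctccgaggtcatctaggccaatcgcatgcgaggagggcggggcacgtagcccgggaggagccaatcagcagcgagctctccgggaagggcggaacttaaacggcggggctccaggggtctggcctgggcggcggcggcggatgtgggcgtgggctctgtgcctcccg
Dnmt3b, chr2:153649199-153649448, + strand: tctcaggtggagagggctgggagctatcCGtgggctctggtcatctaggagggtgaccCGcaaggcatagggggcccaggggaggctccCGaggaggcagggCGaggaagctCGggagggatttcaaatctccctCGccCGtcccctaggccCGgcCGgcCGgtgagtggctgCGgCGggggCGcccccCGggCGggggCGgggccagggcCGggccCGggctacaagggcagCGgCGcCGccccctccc
The Dnmt1 window held 26 CpG, the Uhrf1 window 30 and the Dnmt3b window 21, against a median of 6 over all windows. The 3 starts of Dnmt3l held 5, 4 and 3 CpG. The windows shown for Dnmt1 and Uhrf1 lie downstream of other annotated starts of the same genes (windows at chr9:20952980-20953229 and chr17:56303087-56303336). They can therefore hold transcribed bases. The count tables do not tell which start was used.

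In 2i + LIF the maintenance genes were the highest of the group per length (CPM per kb of all annotated exons, median of the 4 libraries at 0 h). Uhrf1 stood at 203 CPM per kb in PD03 removal and 201 in CHIRON removal, above Dnmt1 at 81.4 and 57.8. In PD03 removal Dnmt3b (42.6), Dnmt3l (41.8) and Tet1 (32.6) came next, and the libraries of Dnmt3b overlapped with those of Dnmt3l and those of Dnmt3l with those of Tet1. Tet2 (28.8), Uhrf2 (8.04), Tdg (2.57), Dnmt3a (1.78) and Tet3 (0.550) followed in steps without overlap. In CHIRON removal the order was Uhrf1, Dnmt1, Tet1 (53.6), Tet2 (42.0), Dnmt3l (24.8), Dnmt3b (15.4), Tdg (9.74), Uhrf2 (4.03), Tet3 (2.19) and Dnmt3a (1.11), and Tet1 overlapped with both Dnmt1 and Tet2. The tables were made and normalised separately, so a gap in level between them is not read as a result. With the longest protein-coding transcript as the length, Uhrf1 stayed the highest in both tables and Tet2 moved from place 6 to place 4 in PD03 removal and from place 4 to place 2 in CHIRON removal.

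Some of these levels rest on reads that another gene could share. The processed pseudogene Tdg-ps had 78.6% to 109% as many counts as Tdg in PD03 removal and 24.2% to 33.6% in CHIRON removal, so reads of Tdg may have been divided between the copies and its level is uncertain. Dnmt3c-ps had 3.62% to 6.39% of the counts of Dnmt3b, and Dnmt3a-ps1 at most 3.39% of those of Dnmt3a. Exons of Dnmt3l overlap on the opposite strand with exons of Aire, which had 0.318% to 1.12% of its counts in PD03 removal and 1.96% to 12.8% in CHIRON removal. Whether reads were assigned by strand is not given in the sources used here.

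After PD03 removal the de novo genes rose within 12 h on both substrates, and the maintenance pair was not called. Dnmt3l rose 1.81-fold on soft and 1.76-fold on stiff substrates, Dnmt3b 1.37-fold on both and Dnmt3a 1.21-fold and 1.31-fold. Tet1 and Tet3 rose as well, Uhrf2 fell, and Dnmt1 and Uhrf1 passed no test. In all, 7 of the 10 genes changed on soft substrates at 12 h (5 higher and 2 lower), where 29.4% of 13422 tested genes were called, and 7 on stiff substrates (6 higher and 1 lower), where 38.4% were called (edgeR's quasi-likelihood test, Benjamini-Hochberg adjusted p under 0.05). DESeq2 called 6 on each substrate, without Tet3 on soft (adjusted p = 0.0952) and without Tdg on stiff (adjusted p = 0.0718). The shares above are those of edgeR, and the share that DESeq2 called is not given here. The median log2 fold change of the 10 genes was 0.21 and 0.27, against 0.00 over all tested genes on both substrates.

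**Figure D1:**
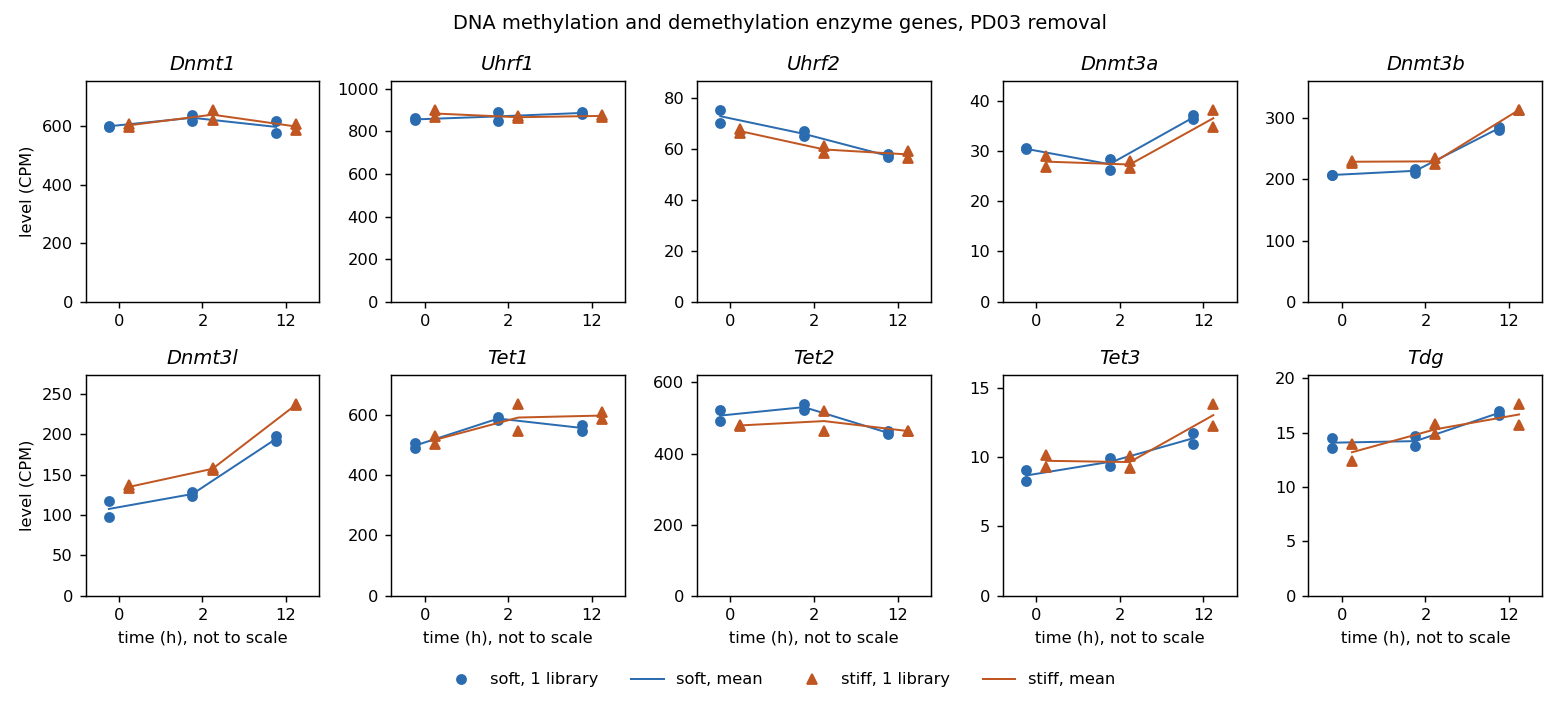
Level of each gene in CPM (vertical axis, from 0) at 0 h, 2 h and 12 h after PD03 removal (horizontal axis, times evenly spaced). Points are libraries, circles on soft and triangles on stiff substrates, and lines join the means of 2 libraries. Dnmt3l climbs from between 97.6 and 137 CPM at 0 h to between 191 and 237 CPM at 12 h, and its stiff points lie above its soft points at each time.

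Dnmt3l (chr10:78041947-78063622, + strand), the cofactor of the de novo enzymes, had the largest change of the group. Its level on soft substrates was 97.6 and 117 CPM at 0 h, 123 and 129 CPM at 2 h and 197 and 191 CPM at 12 h. On stiff substrates it was 137 and 133 CPM at 0 h, 156 and 158 CPM at 2 h and 237 and 236 CPM at 12 h. The libraries of the 3 times did not overlap on either substrate. At 12 h the log2 fold change was 0.86 ± 0.06 (SE) on soft (adjusted p = 6.59e-12) and 0.81 ± 0.06 on stiff substrates (adjusted p = 4.86e-12), and edgeR called it in every alternative run.

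Fewer genes of the group were called at 2 h than at 12 h. On soft substrates 2 of the 10 genes were called, against 1.96% of all tested genes, and on stiff substrates the same 2, against 2.73%. Tet1 stood at 591 and 582 CPM on soft and 545 and 635 CPM on stiff substrates, above its libraries of 0 h, 506 and 488 CPM and 502 and 530.0 CPM. The called genes were Dnmt3l, with a log2 fold change of 0.23 ± 0.06 on soft (edgeR adjusted p = 0.0421) and 0.22 ± 0.06 on stiff (adjusted p = 0.0304), and Tet1, with 0.24 ± 0.05 (adjusted p = 0.00719) and 0.19 ± 0.05 (adjusted p = 0.0336). DESeq2 called only Tet1 on soft and 0 of the 10 on stiff substrates. In edgeR 3 had an unadjusted p under 0.05 on stiff substrates (Uhrf2, Dnmt3l and Tet1). The shares above are those of edgeR, and the share called by DESeq2 is not given here. On soft substrates the call of Dnmt3l was lost without replicate 1 of 0 h (log2 fold change 0.10, adjusted p = 0.636), either library of 2 h (adjusted p = 0.111 and 0.345) or either stiff library of 12 h (adjusted p = 0.0569 and 0.0573), and that of Tet1 without replicate 2 of 0 h (adjusted p = 0.117) or replicate 1 of 2 h (adjusted p = 0.0941). On stiff substrates the call of Dnmt3l was lost without any of the 4 libraries compared (adjusted p from 0.102 to 0.239), and that of Tet1 without either library of 0 h (adjusted p = 0.342 and 0.0591) or replicate 2 of 2 h (log2 fold change 0.08, adjusted p = 0.583).

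Dnmt3b (chr2:153649450-153687730, + strand), the de novo enzyme known for its high level in the early epiblast, was flat at 2 h and higher at 12 h. On soft substrates it stood at 207 and 207 CPM at 0 h, 211 and 217 CPM at 2 h and 281 and 286 CPM at 12 h. Its stiff libraries stood at 230 and 227 CPM at 0 h, 225 and 234 CPM at 2 h and 314 and 314 CPM at 12 h. The 12 h libraries lay above all earlier libraries of the same substrate. At 12 h Dnmt3b had a log2 fold change of 0.45 ± 0.04 on soft (adjusted p = 6.92e-09) and 0.46 ± 0.04 on stiff substrates (adjusted p = 3.08e-09), and it was called in every alternative.

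Dnmt3a (chr12:3806007-3914443, + strand), the other de novo enzyme, was low and rose between 2 h and 12 h. On soft substrates its level was 30.5 and 30.4 CPM at 0 h, 26.3 and 28.5 CPM at 2 h and 36.3 and 37.1 CPM at 12 h. On stiff substrates it was 26.8 and 29.0 CPM at 0 h, 26.6 and 28.1 CPM at 2 h and 38.2 and 34.9 CPM at 12 h. The groups of 0 h and 12 h did not overlap, and those of 0 h and 2 h overlapped only on stiff substrates. Its change at 12 h was 0.27 ± 0.08 on the log2 scale on soft (adjusted p = 0.0140) and 0.39 ± 0.08 on stiff substrates (adjusted p = 0.000549). The call on soft substrates was lost without either library at 0 h (adjusted p = 0.0594 and 0.0649) or without replicate 2 at 12 h (adjusted p = 0.0831).

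The maintenance pair showed no change that a test called. Dnmt1 (chr9:20907209-20959888, - strand) ranged from 579 to 657 CPM over the 12 libraries, and its log2 fold change at 12 h was -0.01 ± 0.04 on both substrates, with 95% intervals from -0.09 to 0.08 on soft and from -0.10 to 0.08 on stiff. Uhrf1 (chr17:56303321-56323486, + strand) ranged from 851 to 902 CPM, with 0.05 ± 0.04 on soft and -0.02 ± 0.04 on stiff substrates. The intervals of both genes at 12 h exclude a change as large as that of Dnmt3b. Uhrf2 (chr19:30030513-30093722, + strand), a relative of Uhrf1 that also binds half-methylated and hydroxymethylated DNA, fell.

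Uhrf2 on soft substrates was at 75.4 and 70.4 CPM at 0 h, 65.0 and 67.0 CPM at 2 h and 58.0 and 56.7 CPM at 12 h. The stiff libraries held 66.3 and 67.8 CPM at 0 h, 61.4 and 58.3 CPM at 2 h and 56.6 and 59.2 CPM at 12 h. Every library at 2 h and 12 h lay below those at 0 h of its substrate. By 12 h Uhrf2 had a log2 fold change of -0.35 ± 0.06 on soft (adjusted p = 0.000112) and -0.21 ± 0.06 on stiff substrates (adjusted p = 0.00967), while the values at 2 h, -0.15 and -0.16, were not called (adjusted p = 0.338 and 0.216). Without stiff replicate 2 at 0 h or stiff replicate 1 at 12 h the call on stiff substrates was lost (adjusted p = 0.0697 and 0.105).

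Among the genes of demethylation, Tet1 (chr10:62804570-62908996, - strand), the main Tet enzyme of mESCs together with Tet2, rose by 0.16 ± 0.05 on soft (adjusted p = 0.0182) and by 0.21 ± 0.05 on stiff substrates (adjusted p = 0.00191) at 12 h on the log2 scale. Its 12 h libraries, 547 and 564 CPM on soft and 609 and 584 CPM on stiff, lay above those of 0 h, 506 and 488 CPM on soft and 502 and 530 CPM on stiff. The soft call was lost without replicate 2 of 0 h (adjusted p = 0.129) or of 12 h (adjusted p = 0.123). Tet2 (chr3:133463679-133545139, - strand) went the other way on soft substrates, from 524 and 490 CPM to 454 and 463 CPM, a log2 fold change of -0.14 ± 0.05 (adjusted p = 0.0224). On stiff substrates Tet2 went from 478 and 480 CPM to 463 and 464 CPM, which was not called (-0.05 ± 0.05, adjusted p = 0.460). The soft call of Tet2 was lost without replicate 1 of 0 h (adjusted p = 0.262), replicate 1 of 12 h (adjusted p = 0.136) or replicate 2 of 12 h (adjusted p = 0.0622), and with all genes tested (adjusted p = 0.0583).

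Tet3 (chr6:83362373-83459084, - strand), the Tet enzyme best known from the zygote and from differentiated cells, rested on 118 to 207 counts a library. It rose from 9.09 and 8.24 CPM to 11.8 and 10.9 CPM on soft substrates (log2 fold change 0.39 ± 0.14, adjusted p = 0.0333) and from 9.29 and 10.2 CPM to 13.8 and 12.203 CPM on stiff substrates (0.42 ± 0.13, adjusted p = 0.0137). The groups did not overlap, but the soft call was lost without any of the 4 libraries compared (adjusted p from 0.0541 to 0.178) and the stiff call without replicate 1 of 0 h (adjusted p = 0.0878) or of 12 h (adjusted p = 0.167). Tdg (chr10:82629828-82650799, + strand), the glycosylase that excises oxidised methylcytosine, rose from 12.4 and 14.0 CPM to 15.7 and 17.6 CPM on stiff substrates (0.33 ± 0.12, adjusted p = 0.0272), with 173 to 285 counts a library. On soft substrates it went from 13.6 and 14.5 CPM to 16.6 and 17.0 CPM, which was not called (0.26 ± 0.11, adjusted p = 0.0890). The stiff call of Tdg was lost without replicate 1 of 0 h (adjusted p = 0.176) or replicate 2 of 12 h (adjusted p = 0.222).

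**Figure D2:**
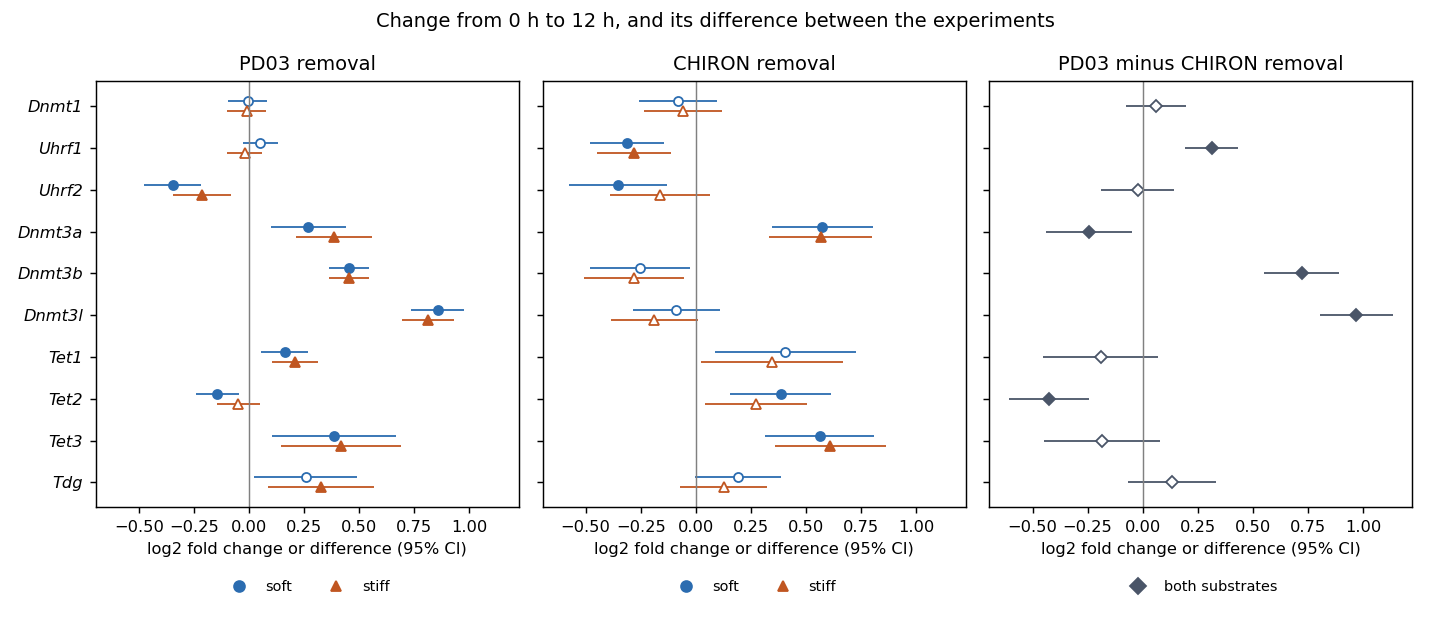
Log2 fold change of each gene from 0 h to 12 h (horizontal axis) after PD03 removal (left) and CHIRON removal (centre), on soft (circles) and stiff (triangles) substrates, and the difference between the experiments over both substrates (right). Lines are 95% confidence intervals, and filled symbols passed an adjusted p of 0.05. Dnmt3b and Dnmt3l lie above 0 on the left and on the right, at 0.72 and 0.97 on the right, and below 0 with open symbols in the centre.

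After CHIRON removal Dnmt3a, Tet3 and Uhrf2 were called on soft substrates at 12 h in the same direction as after PD03 removal. Tet2 was called in the opposite direction, and Uhrf1 only after CHIRON removal. The share of all genes called alike in both experiments was not computed. Dnmt3a rose 1.49-fold on soft and 1.48-fold on stiff substrates at 12 h, Tet3 rose 1.48-fold and 1.53-fold, and Uhrf1 fell to 0.805 and 0.822 of its level at 0 h. Dnmt3b and Dnmt3l did not rise. On soft substrates 5 of the 10 genes were called (3 higher and 2 lower), against 17.8% of 14615 tested genes, and on stiff substrates 3 (2 higher and 1 lower), against 16.8%. The median log2 fold change of the 10 genes was 0.06 and 0.03, against -0.01 over all tested genes on both substrates. These calls were made without the discarded library, and with it edgeR called 0 of the 10 genes on either substrate and 457 and 461 of all genes.

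**Figure D3:**
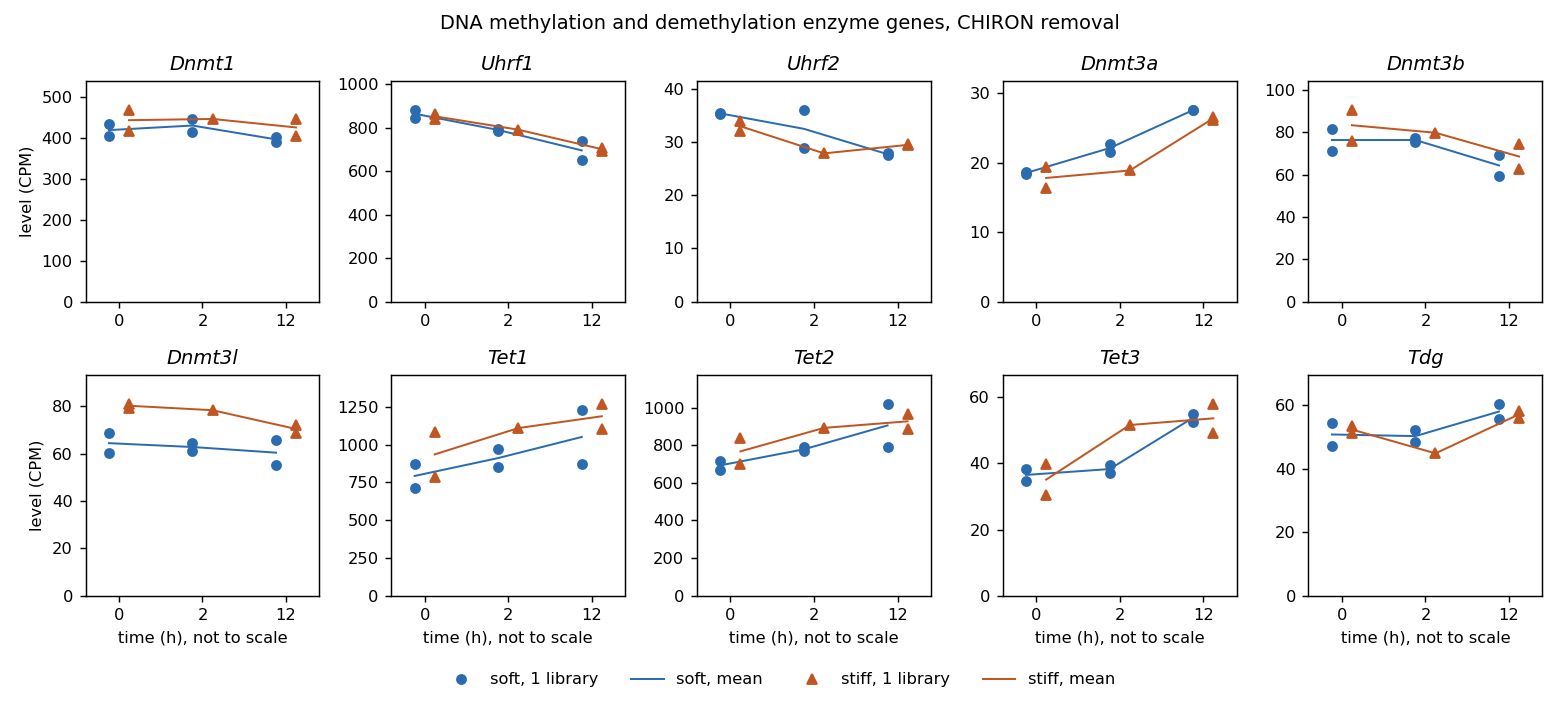
Level of each gene in CPM (vertical axis, from 0) at 0 h, 2 h and 12 h after CHIRON removal (horizontal axis, times evenly spaced), with symbols as in the plot for PD03 removal; stiff substrates at 2 h have 1 library. Dnmt3a goes from between 16.3 and 19.3 CPM at 0 h to between 26.1 and 27.6 CPM at 12 h, and Uhrf1 from between 842 and 883 CPM to between 654 and 738 CPM.

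Dnmt3a was at 18.7 and 18.3 CPM at 0 h, 22.7 and 21.4 CPM at 2 h and 27.6 and 27.5 CPM at 12 h on soft substrates. On stiff substrates it was at 16.3 and 19.3 CPM at 0 h, 18.9 CPM at 2 h and 26.1 and 26.6 CPM at 12 h. No library at 12 h overlapped with one at 0 h. The log2 fold change at 12 h was 0.57 ± 0.11 on both substrates (adjusted p = 0.00109 on soft and 0.00147 on stiff), and only adding the discarded library took the calls away (adjusted p = 0.0809 and 0.0887).

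Tet3, which had 559 to 1470 counts a library here, went from 38.4 and 34.7 CPM at 0 h to 55.1 and 52.7 CPM at 12 h on soft substrates, and from 30.3 and 39.9 CPM to 49.3 and 58.0 CPM on stiff substrates. The log2 fold change was 0.56 ± 0.12 (adjusted p = 0.00263) and 0.61 ± 0.12 (adjusted p = 0.00145), with no overlap between the times. The soft call was lost without replicate 2 at 0 h (log2 fold change 0.49, adjusted p = 0.0537). Its relatives were more variable.

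Tet2 rose on soft substrates from 669 and 718 CPM to 1020 and 791 CPM (log2 fold change 0.39 ± 0.11, adjusted p = 0.0201). On stiff substrates it went from 699 and 836 CPM to 966 and 889 CPM and was not called (0.27 ± 0.11, adjusted p = 0.101). The soft call rested on replicate 1 at 12 h, without which the log2 fold change was 0.19 (adjusted p = 0.307), and it was also lost without either library at 0 h (adjusted p = 0.129 and 0.0690). Tet1 went from 716 and 870 CPM to 1233 and 870 CPM on soft and from 787 and 1084 CPM to 1270 and 1106 CPM on stiff substrates, and neither was called (0.41 ± 0.15, adjusted p = 0.0766, and 0.34 ± 0.15, adjusted p = 0.140). Without replicate 2 of soft 12 h the soft value of Tet1 was 0.64 and was called (adjusted p = 0.00966), and without replicate 2 of stiff 0 h the stiff value was 0.61 and was called (adjusted p = 0.0128). The soft value of Tet1 was also called without either library of stiff 0 h (adjusted p = 0.0270 and 0.0184), with only the groups compared (adjusted p = 0.0425) and without the filter on low counts (adjusted p = 1.17e-05), and the stiff value of Tet2 without either library of soft 12 h (adjusted p = 0.0473 and 0.0478) or replicate 2 of stiff 0 h (log2 fold change 0.42, adjusted p = 0.0240).

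In these groups the replicates of other long genes also differed. Over 1255 genes with more than 10 kb of exons, replicate 1 of soft 12 h lay above replicate 2 by a median of 0.13 on the log2 scale, against -0.01 for shorter genes, and in stiff 0 h the median was -0.10, against 0.01. The median was -0.08 in soft 0 h, 0.06 in stiff 12 h and -0.01 in soft 2 h, where Tet1 was at 972 and 851 CPM. Tet1, Tet2, Tet3 and Dnmt3a all have more than 10 kb of exons. The part of this in their changes was not tested. In PD03 removal the medians of long genes were between -0.09 and 0.04. The lowest was that of stiff 2 h, against 0.01 for shorter genes, where Tet1 was at 545 and 635 CPM. The part of this in the call of Tet1 at 2 h was not tested.

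Uhrf1 fell on both substrates. It was at 846 and 883 CPM at 0 h, 795 and 784 CPM at 2 h and 654 and 738 CPM at 12 h on soft substrates, and at 863 and 842 CPM, 791 CPM and 709 and 694 CPM on stiff substrates. The later libraries all lay below those of 0 h. Uhrf1 had a log2 fold change at 12 h of -0.31 ± 0.08 on soft (adjusted p = 0.0105) and -0.28 ± 0.08 on stiff substrates (adjusted p = 0.0203). The soft call was lost without replicate 1 or 2 of 0 h (adjusted p = 0.0739 and 0.108) or replicate 1 of 12 h (adjusted p = 0.131), and the stiff call without any of the 4 libraries compared (adjusted p from 0.0532 to 0.136), with all genes tested (adjusted p = 0.0539) or with only the groups compared (adjusted p = 0.0602).

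Uhrf2 went from 35.4 and 35.3 CPM to 27.5 and 27.9 CPM on soft substrates (-0.35 ± 0.11, adjusted p = 0.0282), a call that was lost without any of the 4 libraries (adjusted p from 0.0856 to 0.170) or with all genes tested (adjusted p = 0.0672). On stiff substrates Uhrf2 went from 33.9 and 31.9 CPM to 29.3 and 29.5 CPM and was not called (-0.16 ± 0.11, adjusted p = 0.348). Dnmt1 stood between 391 and 469 CPM in the 11 libraries and was not called (-0.08 ± 0.08 and -0.06 ± 0.08 at 12 h). Tdg, at 44.8 to 60.4 CPM, was not called either (0.19 ± 0.09 and 0.13 ± 0.09).

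Dnmt3b and Dnmt3l lay lower at 12 h than at 0 h after CHIRON removal, without passing the test. Dnmt3b went from 71.4 and 81.5 CPM to 59.6 and 69.2 CPM on soft (-0.25 ± 0.11, adjusted p = 0.124) and from 90.7 and 76.1 CPM to 74.7 and 62.6 CPM on stiff substrates (-0.28 ± 0.11, adjusted p = 0.0866). Without replicate 2 of stiff 0 h the stiff value of Dnmt3b was -0.39 and was called (adjusted p = 0.0362). Dnmt3l went from 60.2 and 68.6 CPM to 65.7 and 55.0 CPM on soft (-0.09 ± 0.09, adjusted p = 0.584) and from 80.9 and 79.4 CPM to 72.0 and 68.7 CPM on stiff substrates (-0.19 ± 0.09, adjusted p = 0.197).

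At 2 h after CHIRON removal edgeR and DESeq2 called 0 of the 10 genes on either substrate. Of all genes, 0.226% were called by edgeR on soft and 0.103% on stiff. An unadjusted p under 0.05 was reached by Dnmt3a on soft substrates (log2 fold change 0.25 ± 0.11, adjusted p = 0.503) and by Tet3 on stiff substrates (0.56 ± 0.14, adjusted p = 0.315). The latter compares 1 library at 51.6 CPM with 30.3 and 39.9 CPM at 0 h, and without the higher of these 2 it was called (log2 fold change 0.76, adjusted p = 0.0284).

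The difference between the responses at 12 h was tested in 1 fit of all 23 libraries, as the mean response over both substrates after PD03 removal minus that after CHIRON removal. Of the 10 genes, 5 were called (3 higher and 2 lower), where 36.1% of 14757 genes were called. Dnmt3l differed by 0.97 ± 0.08 on the log2 scale (adjusted p = 2.83e-10) and Dnmt3b by 0.72 ± 0.08 (adjusted p = 9.29e-08), and both were called in every alternative. Uhrf1 differed by 0.31 ± 0.06 (adjusted p = 0.000114) and Tet2 by -0.43 ± 0.09 (adjusted p = 0.000376), and both were lost only with the discarded library added. Dnmt3a differed by -0.24 ± 0.10 (adjusted p = 0.0470), a call that was lost in 25 of 30 alternatives. Dnmt1 (0.06 ± 0.07), Uhrf2 (-0.02 ± 0.08), Tet1 (-0.19 ± 0.13), Tet3 (-0.19 ± 0.13) and Tdg (0.13 ± 0.10) were not called, but Tet1 was without replicate 2 of soft 12 h (-0.30, adjusted p = 0.0366) or of stiff 0 h (-0.31, adjusted p = 0.0330) of CHIRON removal. The inhibitor removed and the experiment cannot be told apart, since each inhibitor was removed in an experiment of its own. The levels at 0 h, in 2i + LIF in both experiments, were unlike for some genes. The median of Dnmt3b was 42.6 CPM per kb in PD03 removal and 15.4 in CHIRON removal, and that of Dnmt3l 41.8 and 24.8. Those of Dnmt1, Uhrf2 and Dnmt3a were also lower in CHIRON removal. The gap went the other way for Tet3 (0.550 and 2.19), Tdg (2.57 and 9.74), Tet1 (32.6 and 53.6) and Tet2 (28.8 and 42.0). The median of Uhrf1 was 203 and 201. The tables were made and normalised separately, so these gaps are not read as a result.

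The substrate made a difference that the test called for 1 gene of the group, Dnmt3l, which was lower on soft substrates. In PD03 removal its log2 fold change of soft against stiff was -0.33 ± 0.06 at 0 h (0.797-fold, adjusted p = 0.0433), -0.32 ± 0.06 at 2 h (0.801-fold, adjusted p = 0.0149) and -0.28 ± 0.06 at 12 h (0.821-fold, adjusted p = 0.00816). Few genes of any kind were called between substrates, 0.0298% of tested genes at 0 h, 0.134% at 2 h and 0.767% at 12 h. Dnmt3l had rank 2 by p among 13422 genes at 0 h, rank 10 at 2 h and rank 42 at 12 h. The libraries of soft and stiff substrates did not overlap at any time, with 97.6 and 117 against 137 and 133 CPM at 0 h, where the spread between the soft libraries was widest.

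These calls depended on single libraries. At 2 h and at 12 h the call was lost without any of the 4 libraries compared, with adjusted p from 0.0737 to 0.421 at 2 h and from 0.0579 to 0.168 at 12 h. At 0 h it was lost without soft replicate 1 (log2 fold change -0.20, adjusted p = 0.901), without stiff replicate 1 or 2 of 0 h (adjusted p = 0.401 and 0.12) and without any of the 4 libraries of 12 h (adjusted p from 0.0575 to 0.0749). Over all alternatives the value kept its sign, from -0.47 to -0.20 (0 h), from -0.35 to -0.29 (2 h) and from -0.31 to -0.26 (12 h).

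**Figure D4:**
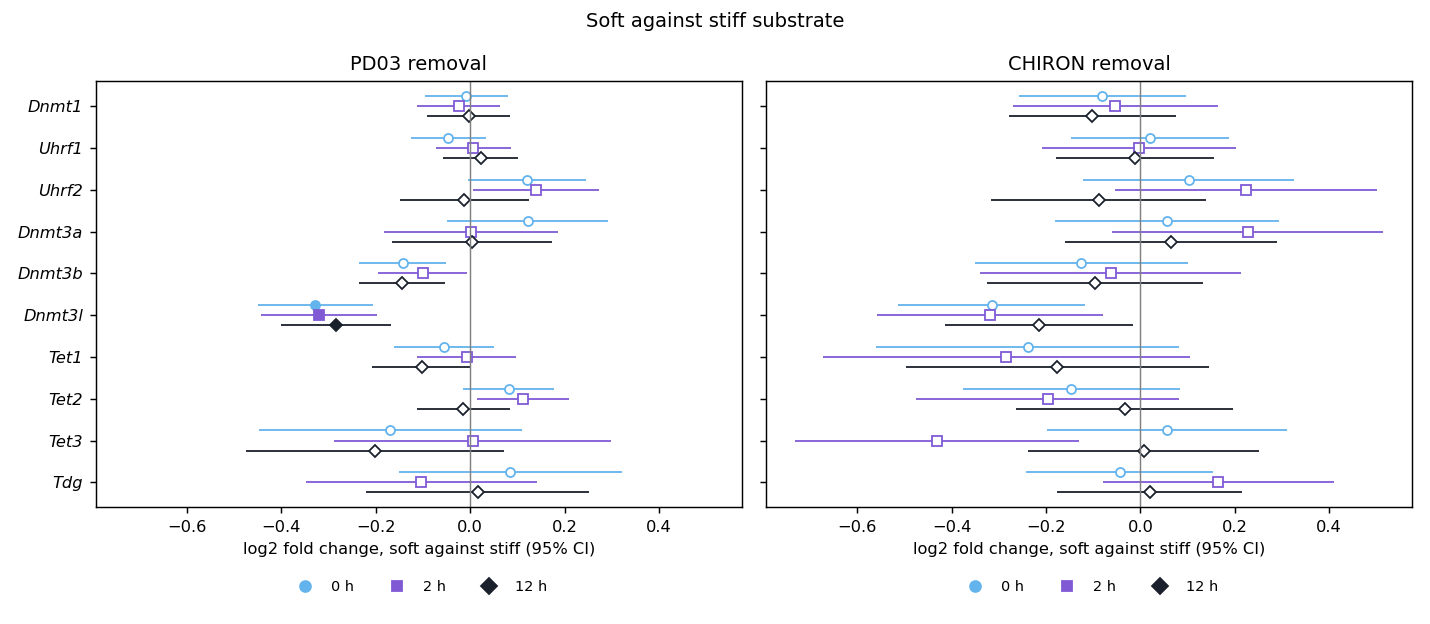
Log2 fold change of soft against stiff substrates (horizontal axis) for each gene at 0 h (circles), 2 h (squares) and 12 h (diamonds) in PD03 removal (left) and CHIRON removal (right). Lines are 95% confidence intervals and filled symbols passed an adjusted p of 0.05. Dnmt3l lies below 0 at each time in both experiments, between -0.33 and -0.22, and is filled only on the left.

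In CHIRON removal edgeR and DESeq2 called 0 of the 10 genes between substrates at 0 h, 2 h or 12 h, and edgeR called 0.00% of all 14615 genes at each time, with 508, 838 and 471 genes at an unadjusted p under 0.05. The log2 fold change of Dnmt3l was -0.32 ± 0.09 at 0 h (unadjusted p = 0.00361 in edgeR, adjusted p = 0.999), -0.32 ± 0.11 at 2 h (unadjusted p = 0.0120 in edgeR, adjusted p = 0.819) and -0.22 ± 0.09 at 12 h (unadjusted p = 0.0353 in edgeR, adjusted p = 0.999). Its libraries were 60.2 and 68.6 CPM on soft against 80.9 and 79.4 CPM on stiff substrates at 0 h, 64.5 and 61.0 against 78.3 CPM at 2 h and 65.7 and 55.0 against 72.0 and 68.7 CPM at 12 h. The soft libraries again lay below the stiff ones at each time. The only other unadjusted p under 0.05 was that of Tet3 at 2 h (-0.43 ± 0.14, unadjusted p = 0.00748 in edgeR, adjusted p = 0.819), against 1 stiff library.

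Dnmt3b lay on the same side as Dnmt3l but was not called. Its log2 fold change of soft against stiff was -0.14 ± 0.04 at 0 h (adjusted p = 0.455), -0.10 ± 0.05 at 2 h (adjusted p = 0.539) and -0.14 ± 0.04 at 12 h (adjusted p = 0.153) in PD03 removal, with no overlap between substrates. In CHIRON removal it was -0.13 ± 0.11, -0.06 ± 0.13 and -0.10 ± 0.11. There the substrates overlapped at 0 h and at 12 h, but not at 2 h, with 1 stiff library. The share of all genes without overlap was not computed. Dnmt1 and Uhrf1 were not called either, with values from -0.10 ± 0.08 (Dnmt1 at 12 h of CHIRON removal) to 0.02 ± 0.04 (Uhrf1 at 12 h of PD03 removal).

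No response of the 10 genes was called as different between soft and stiff substrates. In PD03 removal edgeR and DESeq2 called 0 of the 10 genes at 2 h and 0 at 12 h. Of all genes, 0.00745% were called by edgeR at 2 h and 0.00% at 12 h. In edgeR 0 of the 10 genes had an unadjusted p under 0.05 at either time. The response of Dnmt3l at 12 h differed by 0.04 ± 0.08, with a 95% interval from -0.13 to 0.21, and that of Dnmt3b by 0.00 ± 0.06, from -0.13 to 0.13. In CHIRON removal both tools called 0 of the 10 genes at 2 h and at 12 h, with 0.00% of all genes called at each time by edgeR (452 and 415 at an unadjusted p under 0.05). Only Tet3 at 2 h had an unadjusted p under 0.05 (-0.49 ± 0.19, adjusted p = 1.00), on 1 stiff library.

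Genes that work beside these enzymes were read from lists of their roles, at 12 h and by the same test, where 29.4% of all tested genes were called on soft and 38.4% on stiff substrates after PD03 removal and 17.8% and 16.8% after CHIRON removal. Among 10 genes that recruit the methyltransferases, keep them off or mark histones for them, 4 rose and 3 fell on both substrates after PD03 removal. Dppa3, which keeps Uhrf1 off DNA in oocytes and naive cells, fell on soft (log2 fold change -1.40 ± 0.16) and on stiff substrates (-1.59 ± 0.17; edgeR adjusted p = 6.31e-08 and 1.74e-08). Prdm14, a repressor of Dnmt3b and Dnmt3l in naive cells, fell too (-0.49 ± 0.07 and -0.61 ± 0.07, adjusted p = 2.74e-06 and 6.19e-08), and Setdb1, a histone H3 lysine methyltransferase, was the third to fall (-0.11 ± 0.04 and -0.22 ± 0.04). The genes that rose most were Ehmt2 (0.32 ± 0.05 and 0.38 ± 0.05), Zfp57 (0.16 ± 0.05 and 0.34 ± 0.05) and Ehmt1 (0.22 ± 0.06 and 0.24 ± 0.06). After CHIRON removal 3 of the 10 rose on soft and 2 on stiff substrates and 0 fell, with Ehmt2 (0.35 ± 0.09 and 0.33 ± 0.09) and Trim28 (0.27 ± 0.08 and 0.25 ± 0.08) on both.

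Of the partners of Dnmt1 and Uhrf1 at replicated DNA, 3 of 9 rose on soft and 2 on stiff substrates after PD03 removal and 0 fell, with the DNA ligase Lig1 (0.15 ± 0.04 and 0.22 ± 0.04) and the remodeller Hells (0.14 ± 0.04 and 0.23 ± 0.04) on both. After CHIRON removal 0 of 9 were called on either substrate. Of all tested genes, 29.4% were called on soft and 38.4% on stiff substrates after PD03 removal. After CHIRON removal the shares were 17.8% and 16.8%. The counts in this paragraph are not read as a result about the lists. Of 12 genes of the methyl donor cycle, 2 rose and 2 fell on soft and 2 rose and 6 fell on stiff substrates after PD03 removal. Shmt2 (0.26 ± 0.05 and 0.31 ± 0.05), which handles folate one-carbon units, rose, while Ahcy (-0.19 ± 0.05 and -0.22 ± 0.05), which clears S-adenosylhomocysteine, fell. After CHIRON removal 1 rose and 3 fell on soft and 4 fell on stiff substrates, with Shmt1 (-0.41 ± 0.08 and -0.40 ± 0.08), Mtrr (-0.38 ± 0.09 and -0.29 ± 0.09) and Shmt2 (-0.23 ± 0.08 and -0.30 ± 0.08) lower on both.

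The genes downstream of Tet and Tdg moved in both directions. The shares of all tested genes called were again 29.4% on soft and 38.4% on stiff substrates after PD03 removal. They were 17.8% and 16.8% after CHIRON removal, and the counts below are not read as a result about the lists. Of 13 tested genes of base excision and deamination, 3 rose and 1 fell on soft and 4 rose and 1 fell on stiff substrates after PD03 removal. Gadd45a, a stress gene linked to demethylation, rose by 0.94 ± 0.11 and 1.104 ± 0.10, whereas its relative Gadd45b fell (-0.92 ± 0.11 and -1.11 ± 0.11). The scaffold Xrcc1 rose by 0.24 ± 0.06 and 0.31 ± 0.06 and the uracil glycosylase Ung by 0.14 ± 0.05 and 0.13 ± 0.05. After CHIRON removal 2 of 15 fell on soft, and 1 rose and 3 fell on stiff substrates, with Ung (-0.30 ± 0.08 and -0.43 ± 0.08) and Parp1 (-0.22 ± 0.08 and -0.23 ± 0.08) lower on both. Of 4 tested partners of Tet, 1 rose and 2 fell on both substrates after PD03 removal, namely Cxxc5 (0.30 ± 0.07 and 0.32 ± 0.07) higher and Idh2 (-0.44 ± 0.05 and -0.59 ± 0.05) and Idh1 (-0.40 ± 0.04 and -0.50 ± 0.04), which make 2-oxoglutarate, lower. After CHIRON removal 1 rose and 1 fell on soft and 1 fell on stiff substrates, with Ogt, which binds Tet proteins, lower on both (-0.42 ± 0.09 and -0.48 ± 0.09). A list of 7 readers of methylated CpG and their relatives was read too. After PD03 removal 1 of the 7 rose on soft and 2 on stiff substrates. Mbd3, a relative of the readers, rose on both (0.49 ± 0.08 and 0.48 ± 0.08). After CHIRON removal 1 of the 7 rose on soft and 0 on stiff substrates.

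Dnmt1 and Uhrf1 are known to follow the cell cycle, so genes of S phase and mitosis are given beside them, with the same shares of all genes called (29.4% and 38.4% after PD03 removal, 17.8% and 16.8% after CHIRON removal). Of 19 genes of S phase, 4 rose and 3 fell on soft and 3 rose and 5 fell on stiff substrates after PD03 removal, with Ccne1 (0.42 ± 0.05 and 0.39 ± 0.05), Cdc6 (0.20 ± 0.05 and 0.29 ± 0.05) and Cdt1 (0.17 ± 0.05 and 0.22 ± 0.05) higher and Prim1 (-0.15 ± 0.05 and -0.20 ± 0.06) and Mcm6 (-0.12 ± 0.04 and -0.22 ± 0.04) lower on both. After CHIRON removal, where Uhrf1 fell, 2 of the 19 fell on soft, and 1 rose and 1 fell on stiff substrates, with Cdt1 lower on both (-0.26 ± 0.07 and -0.29 ± 0.07). Of 14 genes of mitosis, 8 rose on soft and 7 on stiff substrates after CHIRON removal and 0 fell, the largest being Aurka (0.44 ± 0.07 and 0.51 ± 0.07), Plk1 (0.36 ± 0.08 and 0.39 ± 0.08) and Aurkb (0.37 ± 0.09 and 0.34 ± 0.09). After PD03 removal 3 rose and 2 fell on soft and 3 rose and 5 fell on stiff substrates, with Plk1 (0.33 ± 0.05 and 0.29 ± 0.05) and Cdc20 (0.14 ± 0.04 and 0.11 ± 0.04) higher and Cdk1 (-0.13 ± 0.05 and -0.23 ± 0.05) and Ccnb1 (-0.13 ± 0.05 and -0.13 ± 0.05) lower on both. The part of the cell cycle in the fall of Uhrf1 was not tested. No gene of the 8 lists was called between soft and stiff substrates at 12 h in either experiment.

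Across the 23 libraries, with each experiment centred on its own mean, some of the 10 genes moved alike. Pearson's r of log2 CPM was 0.84 between Dnmt3b and Dnmt3l, 0.82 between Tet1 and Tet2 and 0.80 between Dnmt3a and Tet3, while Uhrf1 ran against Tet2 (r = -0.79) and Uhrf2 against Tet3 (r = -0.78). Yet on soft substrates at 12 h of PD03 removal Tet1 was called higher (log2 fold change 0.16) and Tet2 lower (-0.14). Tet1, Tet2, Tet3 and Dnmt3a are long genes, whose replicates differed in CHIRON removal. The part of this in these r values was not tested. Among 14757 genes, the closest to Dnmt3b were Gemin5 (r = 0.94), Itpk1 (0.93) and Slc7a7 (0.91), and the closest to Dnmt3l were Actn4, Ipo13 and Nup153 (0.90 each). Among the closest to Dnmt3a were Slc11a1 (0.95) and Aldh2 (0.93), and the closest to Uhrf1 were Bid, Klhl22 and Nkx6-2 (0.92 each). Tet1 lay closest to Ino80d (0.93), Trrap (0.92) and Aspm (0.91), Tet2 was close to Fryl (0.92) and Kmt2c (0.91), and Tet3 closest to Ckap2l (0.92), Tcf15 (0.90) and Fam168a (0.89). Dnmt1 lay closest to Ago2 (0.86), Tln1 (0.85) and Snrnp200 (0.85), Uhrf2 to Rhbdd1 (0.82), Mre11a (0.81) and D230025D16Rik (0.81), and Tdg to Tmem198 (0.86), Mybl2 (0.85) and Dennd3 (0.85). These values describe libraries that share their groups, times and sequencing, and carry no test.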

How the data were processed

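The authors trimmed reads with Trim Galore, aligned them to GRCm38 (mm10) with TopHat2 2.1.0, counted reads per gene of Ensembl release 86 with featureCounts 1.5.0 and deposited raw counts, which are the only values used here. The libraries were made from total RNA after depletion of ribosomal RNA. Symbols or identifiers of 34864 of 35022 and 48349 of 48709 genes were matched to GENCODE M21; the table of PD03 removal holds 15 gene names that look like dates, 23 empty lines, which were left out, and 12 columns that map to no sample here and were not used.

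Protein-coding genes were filtered (filterByExpr, minimum count 10, minimum total count 15), scaled by TMM and fitted with edgeR 4.0.16 (R 4.3.3) in 1 quasi-likelihood model of the 6 groups per experiment, and in 1 model of 23 libraries for the difference between experiments. P-values were adjusted by Benjamini-Hochberg over all tested genes, with a threshold of 0.05. The SE was the log2 fold change divided by the square root of F. Levels are CPM of the tested protein-coding genes after TMM scaling.

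The members and lists were chosen with earlier results of these data known. Named were all 10 members; from each list the genes called the same way on both substrates at 12 h, up to 3 per direction by mean size; and the 3 genes most alike to each member. A few genes that this rule names are not reported here. Tested on simulated data with 200 changed genes, edgeR recovered 173 (with 5 others) at the spread of PD03 removal and 149 (with 9 others) at that of CHIRON removal. Alternatives were DESeq2 1.42.0, its size factors in edgeR, no filter, all genes, a replicate block, only the groups compared, the discarded library and leaving out each library; they were run for the 10 members.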

Additional observations from a re-analysis of the deposited data

Results flagged for a closer look

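The response to removal of an inhibitor at 12 h differed between the experiments for 5 of the 10 genes, by the test of the difference itself in edgeR (PD03 removal minus CHIRON removal, mean of both substrates, log2 scale). The difference was 0.97 for Dnmt3l, 0.72 for Dnmt3b, 0.31 for Uhrf1, -0.24 for Dnmt3a and -0.43 for Tet2. Over all genes 36.1% of 14757 were called in this comparison, and the call of Dnmt3a was lost in 25 of 30 alternatives. Groups of at most 2 libraries were too small to compare a library's gap with the range of its group.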

How the results depend on the processing

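No called change of the 10 genes turned its direction in any alternative. Over the 7 other settings 187 values of called changes kept the call and 30 lost it, and over the fits without a library 374 kept it and 81 lost it. Adding the discarded library of 171333 counts left 0 called members at 12 h of CHIRON removal on soft and 0 on stiff substrates, and 2 for the difference between experiments. The cause was not tested. Without the filter on low counts, 6 members were called on stiff substrates at 12 h of CHIRON removal and 1 at 2 h. Counts of members in the alternatives, and in the fits without a library below, stand without the share of all genes called in the same fit. The number of all genes called also moved in some of these fits, as given below. Such counts do not tell a change of the members from a change over all genes. At 2 h of PD03 removal DESeq2 called 1 on soft and 0 on stiff substrates, testing all genes left 1 and 0, and fitting only the groups compared left 1 on stiff substrates. Testing all genes left 0 between soft and stiff substrates at 0 h.

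Without each library in turn, the number of called members in PD03 removal ranged from 0 to 2 on both substrates at 2 h, from 3 to 7 on soft and from 5 to 7 on stiff substrates at 12 h, and from 0 to 1 between substrates at 0 h, 2 h and 12 h. In CHIRON removal it ranged from 1 to 6 on soft and from 2 to 5 on stiff substrates at 12 h and from 0 to 1 on stiff substrates at 2 h, and for the difference between experiments from 4 to 6. In the other comparisons it stayed at 0.

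The number of all genes called moved by more than 1.5 times mainly where it was small. Without the filter on low counts it was 30, 68 and 185 between substrates at 0 h, 2 h and 12 h of PD03 removal (in place of 4, 18 and 103) and 17, 54 and 15 in CHIRON removal (in place of 0), and for responses 6 and 17 in PD03 removal (in place of 1 and 0) and 14 and 7 in CHIRON removal (in place of 0). At 2 h it was then 400 on soft substrates of PD03 removal (in place of 263) and 144 on soft and 89 on stiff substrates of CHIRON removal (in place of 33 and 15). For these last comparisons the block gave 21 and 4 and the discarded library 1 and 0, and on stiff substrates DESeq2 gave 23, all genes 8 and only the groups compared 0. Only the groups compared gave 175 between substrates at 12 h of PD03 removal and 30 at 2 h of CHIRON removal, and at 0 h of PD03 removal DESeq2 gave 2 and all genes 0. The discarded library lowered the number at 12 h of CHIRON removal from 2603 to 457 on soft and from 2455 to 461 on stiff substrates, and that for the difference between experiments from 5326 to 2544.

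Libraries with the same replicate number deviated little together. Their deviations from the group means had a mean correlation of 0.00 (from -0.05 to 0.11 over 15 pairs of groups) in PD03 removal. In CHIRON removal it was -0.02 (from -0.11 to 0.07 over 10). A mean over pairs of both signs does not tell whether some groups shared a source. With the replicate number as a block, 7 members were called on each substrate at 12 h of PD03 removal, 5 and 3 at 12 h of CHIRON removal, and 4 in place of 5 for the difference between experiments. In the other comparisons the block left the number as it was. Depth limits Tet3 and Tdg most, with 118 to 285 counts a library in PD03 removal.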
